A study of Mus musculus with 188 samples.

Results

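The clustered protocadherin locus of the mouse was followed as 21 bins of 50 kb at chr18:36900001-37950000 (mm10), out of 45112 autosomal bins used and 52685 in the tables. The bins were set by position, to take in the Pcdha, Pcdhb and Pcdhg gene clusters, with earlier results of these data known. All 21 had usable values. They were set against the 2 Mb on each side, of which 79 of 80 bins were usable, 39 on the left and 40 on the right. The values came from S-phase nuclei sorted one by one from 2 lines of mouse embryonic stem cells (mESCs), in which a replicated stretch of DNA has a higher copy number than an unreplicated one. The haploid line was H129-2, of strain 129, with 75 cells used of 86 labelled as S-phase. The diploid line was F121-9, a hybrid of 129 and Castaneus whose homologs can be told apart by sequence variants, with 63 cells used of 96. Both lines grew without feeders in N2B27 medium with 2i and LIF, and no agent was given to either. Haploid nuclei were sorted with wider DNA content gates, and carried 24.6% to 88.6% of their autosomal bins as replicated, against 18.2% to 79.1% in the diploid nuclei. This percentage is called progress below, and cells with a progress of 40% to 60%, 25 haploid and 45 diploid, are called mid-S cells.

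Each line is a single culture as far as the labels say, and its cells carry the wells of 1 plate. Cells of a plate are not replicates of a line, so no test was made and every SD is a spread over cells or, where stated, over bins. Strain, ploidy, culture and plate all differ between the lines, and their parts in a difference cannot be told apart. These are DNA data, and the stem cell identity of the nuclei could not be checked from marker expression. Read numbers are not part of the values, so the depth of a cell is unknown, and intervals given for shares of cells are exact binomial intervals at 95% that cover counting error only.

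DNA replication starts at many origins in a fixed broad order, with active chromatin copied early in S phase and silent chromatin late. The clustered protocadherins are cadherin-like surface proteins that give a neuron its own identity, so that its branches recognise and avoid one another. In Pcdha and Pcdhg, each variable exon has its own promoter and is spliced to constant exons shared by the cluster, while the Pcdhb genes are single-exon genes. A neuron uses a few of these promoters, chosen largely at random on each chromosome and looped to distant enhancers by CTCF and cohesin.

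The locus replicated later than its surroundings, as a dip within an early domain, and the dip lay over Pcdha and Pcdhb but not over Pcdhg. The median scheduled time of the locus, which is the rank of a bin in the mean smoothed profile of both lines placed on a 10 h S phase, was 4.09 h, with an SD of 1.72 h over its 21 bins. The median was 0.951 h in the 79 flank bins, 0.638 h on the left and 1.57 h on the right. The locus was therefore scheduled 3.14 h after its flanks. Over 2069 consecutive autosomal windows of 21 bins, the same difference between a window and its flanks had quartiles of -1.29 h and 1.24 h around a median of 0.0029 h.

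The 14 Pcdha genes, annotated at chr18:36930285-37188897, covered 6 bins. Their first bin, with the start of Pcdha1 (chr18:36930285-37187657), was scheduled at 3.80 h, and the time rose in each next bin to 5.02 h at chr18:37150001-37200000, which holds the 3' end of the cluster. No other bin of the locus was scheduled later. The 22 Pcdhb genes, at chr18:37264998-37521419, also covered 6 bins. The time there fell from 4.98 h at Pcdhb1 (chr18:37264998-37267454) to 3.66 h at Pcdhb22 (chr18:37518353-37521419). The 21 Pcdhg genes, at chr18:37661775-37841873, covered 4 bins, with 1.86 h at the start of Pcdhga1 (chr18:37661775-37841870) and 0.709 h at Pcdhgc5 (chr18:37819546-37841873). The means over bins were 4.60 h ± 0.464 for Pcdha, 4.41 h ± 0.483 for Pcdhb and 1.22 h ± 0.476 for Pcdhg (SD over bins). Pcdhg came first by a wide margin, while the means of Pcdha and Pcdhb were close. Neighbouring bins share the smoothing, so these SDs describe the slope within a cluster and not the error of a mean.

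The remaining protein-coding genes of the locus lay on its early side. Slc25a2, a mitochondrial ornithine carrier, and Taf7, a subunit of the general transcription factor TFIID, sit between Pcdhb and Pcdhg, and both lie in a bin scheduled at 2.57 h. Diaph1, a formin that nucleates actin filaments, has its lower coordinate in the last Pcdhg bin at 0.709 h. Hdac3, a histone deacetylase, has its lower coordinate in the last bin of the locus, at 0.263 h, the earliest of the 21. Strand was not considered in placing these genes. The read-through models Gm37013, Gm38666 and Gm38667 start within Pcdha, all in the bin scheduled at 4.32 h, and end with Pcdhg. In all, 11 of 21 locus bins were scheduled after 4 h, against 0 of 39 in the left flank and 10 of 40 in the right flank.

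The flanks differed in shape. On the left, 35 of 39 bins were scheduled before 2 h, from 0.246 h at Nrg2, which encodes a neuregulin, to 3.61 h in the bin next to Pcdha1, where no protein-coding gene is annotated. On the right, 25 of 40 bins came before 2 h. The earliest of these, at 0.269 h, held Hdac3, Rell2 and Fchsd1, a receptor-like protein and a regulator of actin. Pcdh1 and Pcdh12, protocadherins that stand alone in this flank, had medians of 0.319 h and 0.460 h. The far end of the right flank ran into later DNA, and its latest bin, chr18:39800001-39850000 with no protein-coding gene, was scheduled at 5.87 h.

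**Figure D1:**
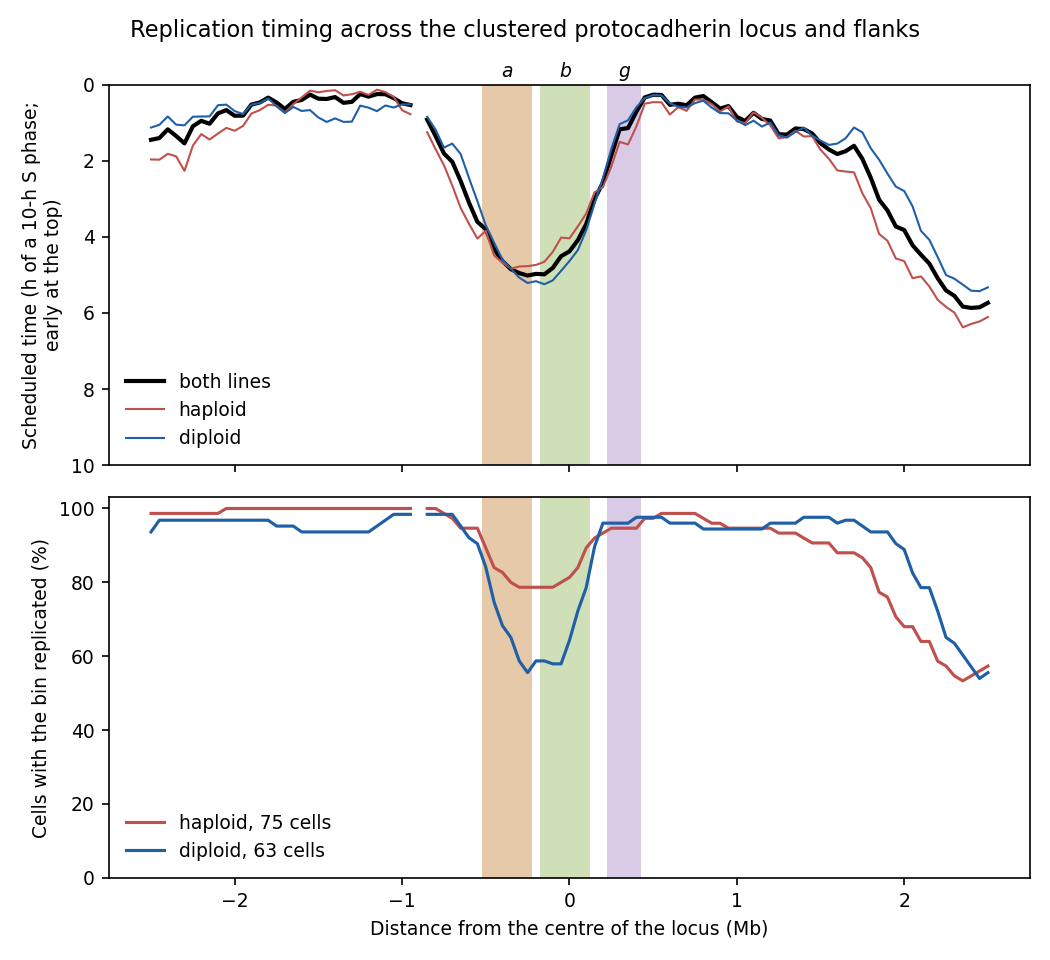
Scheduled time in hours (upper panel, early at the top) and the percentage of cells with a bin replicated (lower panel) against distance from the centre of the locus in Mb, for both lines together (black), 75 haploid cells (red) and 63 diploid cells (blue). Shaded bands a, b and g mark the bins of Pcdha, Pcdhb and Pcdhg, the gap on the left is the unused flank bin, and the dip between 2 early shoulders reaches 5.02 h.

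The smoothed score, which is relative within a cell and has no unit, showed the dip in both lines. At the start of Pcdha1 the score ran from -0.544 through a median of 0.164 to 1.23 in haploid cells, and from -0.552 through 0.189 to 1.29 in diploid cells. At Pcdhb1 it ran from -0.883 through 0.126 to 1.07 in haploid cells, and from -0.838 through -0.177 to 0.831 in diploid cells. At Pcdhga1 it ran from -0.804 through 0.419 to 1.25 in haploid cells, and from -0.155 through 0.541 to 1.48 in diploid cells. The ranges of single cells overlapped widely between the 3 genes and between the lines, while the medians put Pcdhga1 highest in each line. Within a cell the order of scores was steadier. Pcdhg had the higher mean score than Pcdhb in 66 of 75 haploid cells, by 0.293 ± 0.342, and in 60 of 63 diploid cells, by 0.617 ± 0.419 (SD over cells). Pcdhg was above Pcdha in 60 of 75 haploid and 56 of 63 diploid cells. Pcdha and Pcdhb had no such order, with Pcdha higher in 26 of 75 haploid and 37 of 63 diploid cells. Pcdhg and Pcdhb were called equally replicated in 63 haploid and 37 diploid cells. In most cells the order of scores was therefore not a called order of replication.

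The binarized states, 0 or 1 for each bin, homolog and cell, gave the same picture in shares of cells. The bin with Pcdhb1 was replicated in 59 of 75 haploid cells, or 78.7% (95% interval 67.7% to 87.3%), and on both homologs in 37 of 63 diploid cells, or 58.7% (45.6% to 71.0%). The bin with Pcdhga1 was replicated in 71 of 75 haploid cells, or 94.7% (86.9% to 98.5%), and on both homologs in 60 of 63 diploid cells, or 95.2% (86.7% to 99.0%). The bin with Pcdha1 lay between them, at 67 of 75 haploid and 53 of 63 diploid cells. With homologs averaged, the lowest bin of the locus stood at 78.7% in haploid and 55.6% in diploid cells. No bin of the left flank was below 94.7% and 90.5%. The right flank, which runs into later DNA at its far end, had lower bins than the locus, down to 53.3% and 54.0%. These shares include every cell and so depend on which part of S phase was sorted.

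Along S phase the replicated share of the locus rose most before 60% of progress. In the 11 haploid cells under 40% of progress, 41.6% ± 28.9 of the locus was replicated (SD over cells), with a range from 0% to 100%. It was 82.5% ± 27.0 in 6 cells at 40% to 50%, 94.2% ± 17.3 in 19 cells at 50% to 60% and 100% in each of the 14 cells at 60% to 70%. In the 25 haploid cells from 70% on it was 94.7% ± 18.5, with a lowest cell at 28.6%. In diploid cells it was 38.1% ± 29.9 in 4 cells under 40%, 51.4% ± 21.5 in 10 cells at 40% to 50%, 81.6% ± 24.3 in 35 cells at 50% to 60% and 95.6% ± 10.7 in 13 cells at 60% to 70%. The values of single cells overlapped between neighbouring intervals in both lines. In the earliest interval, 9 of the 11 haploid cells came from plate row A, so position on the plate and progress moved together there.

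The clusters filled in at different points of S phase. At 40% to 50% of progress, diploid cells had 20% of Pcdhb, 35.0% of Pcdha and 92.5% of Pcdhg replicated, with 97.9% of the left flank and 84.5% of the right. Haploid cells of the same interval had 75% of Pcdhb, 69.4% of Pcdha and 100% of Pcdhg replicated. In mid-S cells, 100% of the haploid and 97.2% of the diploid values of Pcdhg were in the replicated state, and 86.7% and 59.8% of those of Pcdhb. Within single cells, Pcdhg was more replicated than Pcdhb in 12 haploid and 25 diploid cells and less so in 0 and 1, the rest being equal.

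A sigmoid fitted to the percentage of locus bins replicated against hours of S phase put its midpoint at 3.38 h in haploid cells and 4.35 h in diploid cells. The fitted time from 25% to 75% replicated was 1.93 h and 1.72 h. Fitted on its own, Pcdhb had midpoints of 3.94 h and 5.12 h, and Pcdha 4.15 h and 4.91 h. Few cells lay before the haploid midpoints and the diploid midpoint of the whole locus, and these fits lean on them. Only 11 haploid and 4 diploid cells were under 40% of progress. The diploid fits of Pcdha and Pcdhb, with midpoints at 49.1% and 51.2% of progress, had a further 10 cells at 40% to 50%. By a count that needs no curve, more than 50% of the locus bins were replicated in 21 of 25 mid-S haploid cells, or 84.0% (63.9% to 95.5%), and in 32 of 45 mid-S diploid cells, or 71.1% (55.7% to 83.6%). The intervals overlap. When all 21 bins had to be replicated, the diploid count was 48.9% and the haploid count was still 84.0%.

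**Figure D2:**
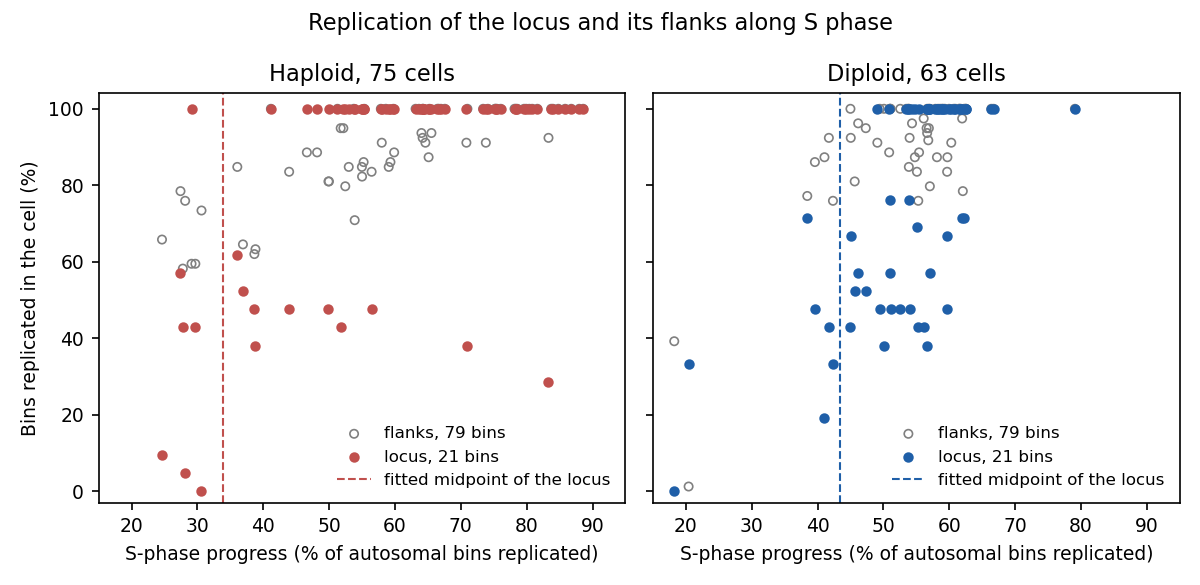
Percentage of bins replicated in each cell against its progress through S phase, the percentage of autosomal bins replicated, for 75 haploid (left) and 63 diploid cells (right). Filled points are the 21 locus bins, open points the 79 flank bins, and the dashed line is the fitted midpoint of the locus, at 33.8% of progress in haploid and 43.5% in diploid cells.

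In single cells the unreplicated part of the locus was nearly always 1 bounded stretch. The locus held an unreplicated bin in 73 of 201 genomes, counting each diploid homolog as a genome, and these came from 45 cells, 16 haploid and 29 diploid. In all 73 genomes the unreplicated bins inside the locus formed a single run. The run was closed on both sides within the 5 Mb of locus and flanks in 44 of the 45 cells, counting 1 genome per cell. The exception was diploid cell C7, at 20.4% of progress, in which the run reached the left end of the window.

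Past 40% of progress the run kept to much the same place. It was closed in all 31 such cells with an unreplicated locus bin, with a median length of 550 kb and a range of 250 to 1750 kb, and in 30 of the 31 it was at most 1000 kb. The median run began at base 36950001 and ended at base 37500000, from within Pcdha to within Pcdhb. In 28 of the 31 cells it spanned the whole gap from the 3' end of Pcdha to Pcdhb1. The bin at chr18:37150001-37200000 was unreplicated in 30 of the 31 cells, and the bin of Pcdhga1 in 2.5 with homologs averaged. The authors' segmentation sets a smallest segment, and the shortest runs, of 250 kb, are at that size, so shorter unreplicated stretches are not resolved. The smoothing before it spans a stretch longer than the median run, so the ends of runs are placed coarsely.

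The left and right ends of the runs fell at separate borders. By definition a left end is a change from replicated to unreplicated, read left to right, and a right end the reverse. Between neighbouring bins from base 36900001 to base 37150001, the state changed from replicated to unreplicated, read left to right, in up to 16 of 201 genomes at a border, and it never changed the other way. From base 37400001 on, changes went only from unreplicated to replicated, again in up to 16 genomes at a border. Of the borders of the locus, those at bases 36950001 and 37550001 were crossed most, each in 7.96% of genomes. The mean over all autosomal borders was 1.93%, and these 2 borders were picked for their high values. Homologs of a cell share a state by default, and most diploid cells enter these counts with both homologs. Fewer cells than genomes therefore stand behind most of the counts. No genome changed state at base 37250001, the border just before Pcdhb1, or at the first 2 borders within Pcdhg, bases 37700001 and 37750001.

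Some runs stood alone. In 10 of the 45 cells, 9 diploid and 1 haploid, the run through the locus held every unreplicated bin of the 5 Mb. Diploid cell C8, at 50.1% of progress, had a run of 650 kb from base 36900001 and no other, and diploid cell D10, at 52.6%, one of 550 kb from the same base. The haploid cell of this kind was C11, at 71.0%, with 650 kb from base 36950001. It and haploid cell F7, at 83.3% with 750 kb from base 37100001, were the only haploid cells past 60% of progress, of 39, with an unreplicated locus bin. In diploid cells the last were C3 at 62.0% and G1 at 62.3%, 2 of 14 past 60%. At the other end, 1 haploid cell had the whole locus replicated at 29.1% of progress, while the first such diploid cell was at 49.1%.

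**Figure D3:**
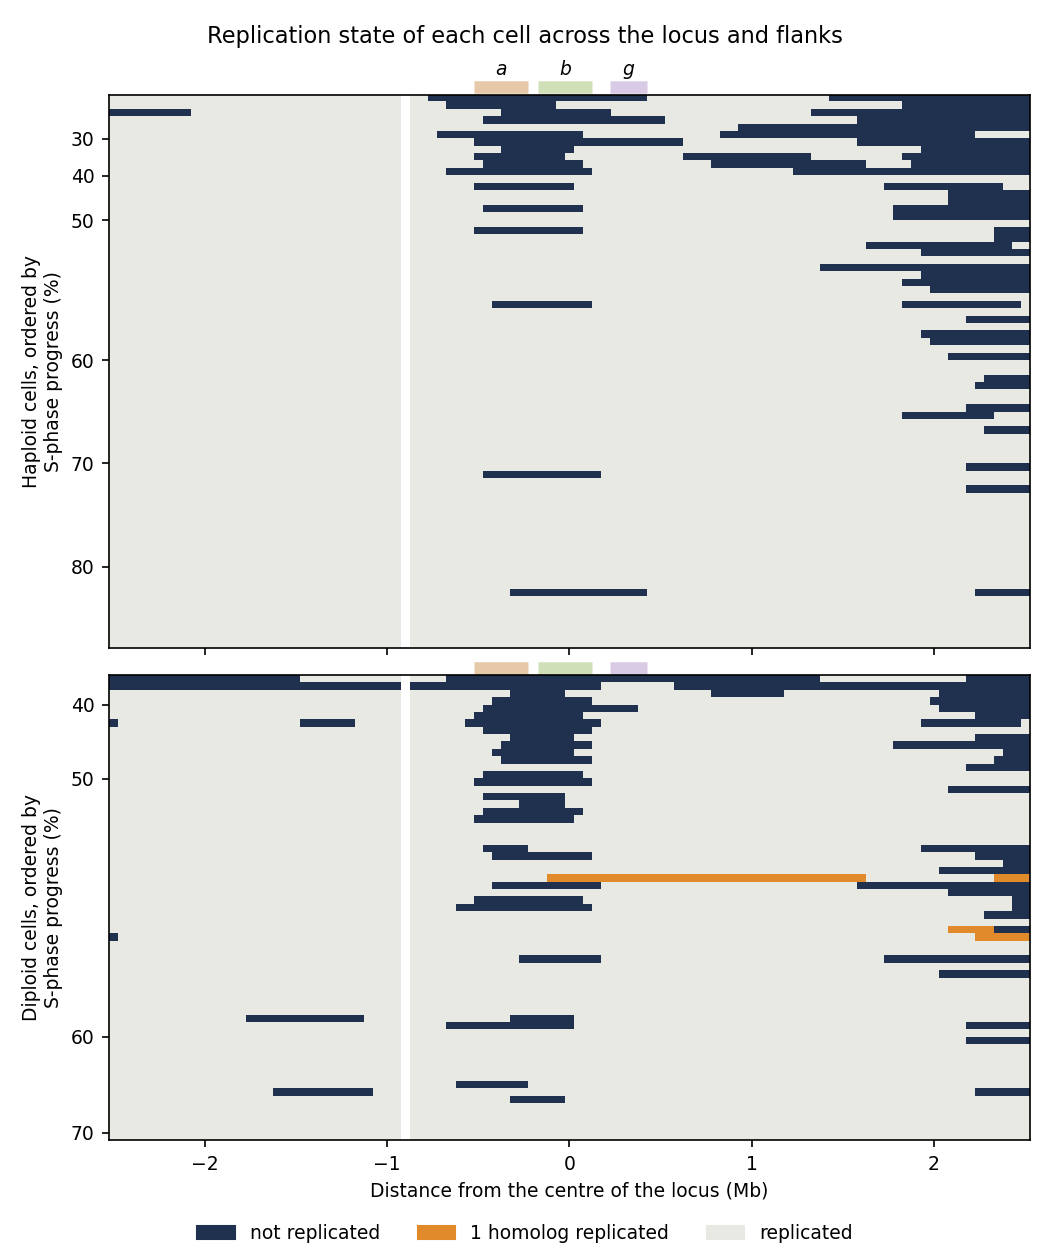
Replication state of each used bin against distance from the centre of the locus in Mb, with 1 row per cell ordered by progress through S phase from top to bottom (75 haploid cells above, 63 diploid cells below). Dark is unreplicated, light is replicated, orange is replicated on 1 homolog, and bars a, b and g mark Pcdha, Pcdhb and Pcdhg; most dark stretches near the centre begin within Pcdha and end within Pcdhb, separate from the late DNA at the right edge.

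The score was lower over Pcdha and Pcdhb even where no state difference was called. In cells with an unreplicated locus bin, the mean score of the Pcdha and Pcdhb bins was below that of the flanks in 16 of 16 haploid cells, with a mean difference of -0.795, and in 29 of 29 diploid cells, at -0.807. These cells were chosen by their states, which derive from the same profiles. In cells whose every locus and flank bin was called replicated, the same bins were still below the flanks in 31 of 37 haploid cells, with a mean difference of -0.232 ± 0.221, and in 19 of 23 diploid cells, at -0.314 ± 0.324 (SD over cells). The part of this remaining difference in the scheduled times was not tested. Scheduled times drawn from the binarized states gave 4.24 h for the locus and 3.12 h for its lag behind the flanks. The states derive from the same smoothed profiles, so this is not a separate check of the schedule.

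The locus was further on in haploid than in diploid cells of like progress, and the difference lay over Pcdhb and the near end of Pcdha. Within intervals of 10 points of progress that held at least 3 cells of each line, 39 haploid and 58 diploid cells, the haploid score was higher by 0.133 on average over the locus (SD 0.159 over bins). The difference was 0.297 ± 0.0589 over Pcdhb, 0.156 ± 0.0875 over Pcdha and -0.0499 ± 0.0448 over Pcdhg (SD over bins). It was highest, at 0.362, in the bin of Pcdhb3 to Pcdhb7, chr18:37300001-37350000, and it was above 0 in 16 of 21 bins, against 55% of all autosomal bins. Over all autosomal bins the mean was 0.0167 with an SD of 0.195 over bins. Neighbouring bins share the smoothing, so counts of bins and SDs over bins do not rest on independent values. Of all autosomal bins, 1.65% differed by 0.5 or more in either direction, and 0 of 21 locus bins and 0 of 79 flank bins did. In states, the haploid cells were ahead by 13.3 points over the locus and 20.5 over Pcdhb. In scores the flanks went the other way, with a mean difference of -0.106 ± 0.116 (SD over bins) and -0.409 at its lowest, in the right flank. In states only the right flank did, at -8.04 points, while haploid cells were ahead by 1.85 points in the left flank.

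The difference was smaller in the last of the 3 matched intervals than in the other two. At 40% to 50% of progress the mean Pcdhb score was 0.248 ± 0.417 in 6 haploid cells and -0.302 ± 0.283 in 10 diploid cells (SD over cells). At 50% to 60% it was 0.413 ± 0.375 in 19 haploid cells and 0.0727 ± 0.359 in 35 diploid cells. At 60% to 70% it was 0.299 ± 0.268 in 14 and 0.205 ± 0.315 in 13. The Pcdhb difference thus went from 0.550 through 0.340 to 0.0943. Over the whole locus the haploid minus diploid difference went from 0.343 through 0.184 to -0.0661 across these intervals. The first of these was slightly above the SD over cells of either line, 0.301 and 0.277, and the second was below it. Without plate row A of the haploid cells, the mean difference over the locus was 0.109.

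Cell-to-cell differences followed the dip in diploid cells. Among 253 pairs of cells of one line whose progress differed by at most 1 point, the states of a pair differed in 16.3% of locus bins (SD 19.8 over cells), 7.46% of flank bins and 16.7% of all autosomal bins. Pooled over the lines, the locus was near the share of all bins, but the lines lay on opposite sides of that share. Haploid pairs differed in 8.46% of locus bins, 7.14% of flank bins and 16.28% of all autosomal bins. Diploid pairs differed in 20.99%, 7.66% and 17.02%. The locus was thus only slightly above its flanks in haploid pairs and well above them in diploid pairs. The SD over cells of the locus share was 22.24 in haploid and 15.09 in diploid pairs. In 159 diploid pairs the share was 33.0% over Pcdha, 31.0% over Pcdhb and 1.73% over Pcdhg. In 94 haploid pairs it was 9.40%, 10.6% and 6.38%. More haploid than diploid pairs lay past 60% of progress, 58 of 94 against 41 of 159, and there the haploid pairs differed in 3.53% of locus bins and the diploid pairs in 12.7%. At 50% to 60%, 27 haploid pairs differed in 6.35% and 110 diploid pairs in 24.1%. In 8 haploid pairs under 40% the share was 45.8%. Within the locus, the bin with the most differing states was again chr18:37150001-37200000, at 28.9% over all pairs. The fewest, 2.37%, were in the bins of Diaph1 and Hdac3. A cell enters several pairs, so pairs are not independent.

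**Figure D4:**
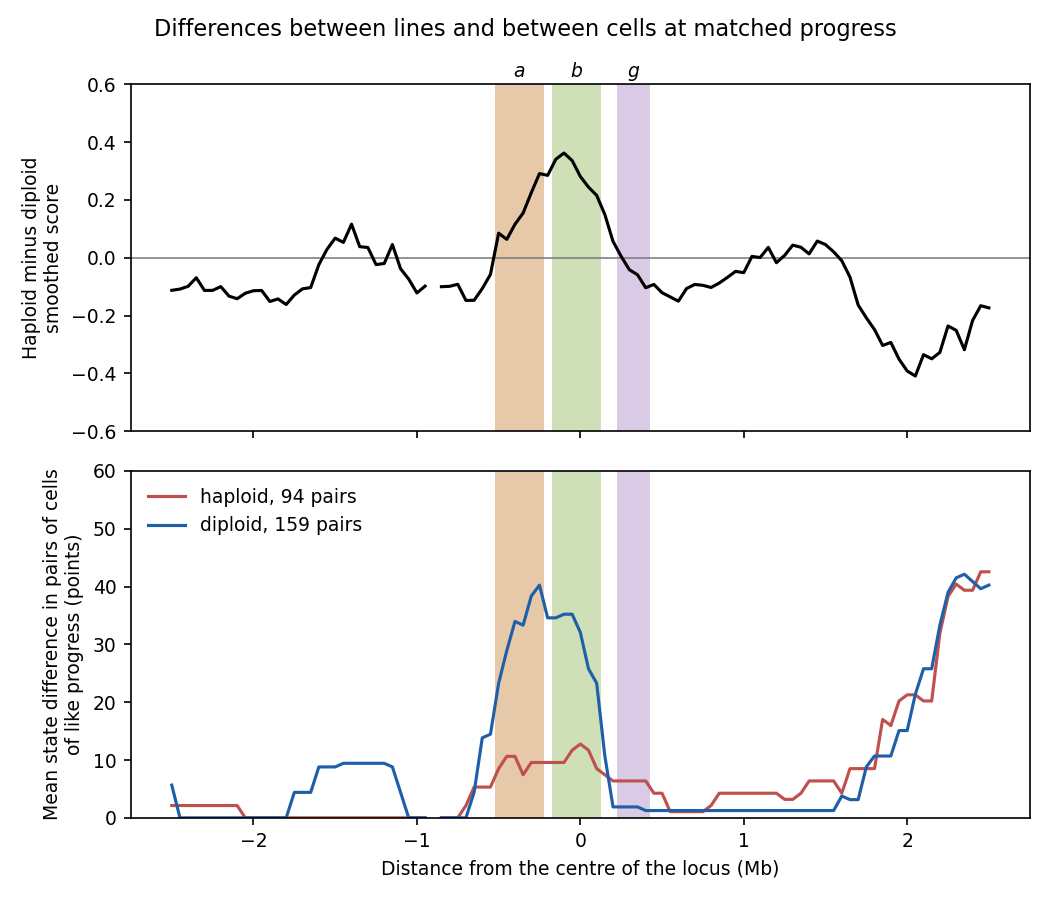
Haploid minus diploid smoothed score at matched progress (upper panel, 39 haploid and 58 diploid cells) and the mean difference in state between cells of a pair within 1 point of progress (lower panel, 94 haploid pairs in red, 159 diploid pairs in blue) against distance from the centre of the locus in Mb. Shaded bands a, b and g mark Pcdha, Pcdhb and Pcdhg; the score difference reaches 0.362 over Pcdhb, and the diploid pairs differ most over Pcdha and Pcdhb and at the late right end.

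Few locus bins carried different states on the homologs. The authors gave homologs different states only where parsed reads passed their limits, so homologs share a state by default and a low count does not show that they replicated together. Of the locus bins of 63 diploid cells, 0.983% were asynchronous, against 0.743% in the flanks and 0.870% of all autosomal bins. Some asynchrony in at least 1 cell was present in 40.4% of autosomal bins, in 13 of 21 locus bins and in 31 of 79 flank bins. All 13 locus bins came from a single cell, F11, at 55.1% of progress, which is 1.59% of cells (0.0402% to 8.53%). In it the Castaneus homolog was replicated and the 129 homolog was not, from base 37300001 within Pcdhb through all of Pcdhg and into the right flank, 26 bins of which were asynchronous too. Over Pcdha, 0 of 63 cells had a bin called asynchronous, which allows a share of cells so called of up to 4.76% when a count of 0 is taken to allow 3 cells, or 5.69% by the exact interval. Cell F11 carried asynchrony in 8.58% of its autosomal bins, and without it the asynchrony of the locus was 0. Cells G3 and H6 had 5 and 6 asynchronous bins at the far right of the window, with Castaneus ahead in G3 and 129 ahead in H6. In 28 of the 29 diploid cells with an unreplicated locus bin, both homologs carried the identical run.

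A whole locus in 1 state was common but rested on cells that had finished it. All 21 bins shared a state in 131 of 201 genomes, or 65.2%, and 128 of these were fully replicated. Homologs of a cell share their state by default and are not separate observations. Counted by cell, the locus was uniform in 60 of 75 haploid cells, or 80% (69.2% to 88.4%), and on both homologs in 35 of 63 diploid cells, or 55.6% (42.5% to 68.1%). The locus was wholly unreplicated in only 3 genomes, from haploid cell A1 at 30.6% and both homologs of diploid cell A2 at 18.2% of progress. The left flank was uniform in 89.6% of genomes and the right flank in 52.7%. In mid-S cells alone the locus was uniform in 57.4% of genomes.

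The protocadherins outside the clusters had mostly late schedules. Of 10 such genes, 8 had a median scheduled time later than the locus median, against 28.1% of 19361 autosomal protein-coding genes. Their median was 8.80 h, and that of all these genes was 2.53 h. Pcdh7 had no bin scheduled before 9.98 h and was replicated in 2.22% of its haploid values. The medians were 9.45 h for Pcdh9, 9.58 h for Pcdh20, 9.20 h for Pcdh18, 8.82 h for Pcdh15, 8.77 h for Pcdh10 and 8.26 h for Pcdh17. Pcdh8 lay at 4.83 h, near Pcdha. Pcdh1 and Pcdh12 in the right flank, given above, were the early ones. Pcdh8, Pcdh9, Pcdh17 and Pcdh20 all lie within chr14:79766772-93892834, and Pcdh10 and Pcdh18 within chr3:45378398-49757383. The 10 genes are therefore not independent in position. A list of 11 genes, chosen for products linked to control of the clusters by chromatin and looping, with Celsr3 added, had 10 measured members. All 10 were scheduled before the locus median, as were 71.9% of protein-coding genes, and their median of 2.12 h was near that of all genes. Setdb1, an H3K9 methyltransferase, was at 0.211 h, and Wapl, which releases cohesin, at 0.503 h. Dnmt3b, a DNA methyltransferase, was at 1.08 h, Wiz, a zinc finger partner of G9a, at 1.78 h, and Ctcf at 1.88 h. The cohesin subunit genes Smc3 and Rad21 were at 2.49 h and 3.89 h, and the cohesin loader gene Nipbl at 3.30 h. Smchd1, a chromatin repressor of the clusters, was at 3.57 h, and Celsr3, an atypical cadherin of the cell surface, at 2.36 h. Smc1a is X-linked and was not measured here.

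The genes whose states were most like those of the locus were early ones. Among 18626 protein-coding genes outside chromosome 18, the mean absolute difference over the cells of both lines between the state of the bin of a gene's start and the mean state of the locus had a median of 18.8 points. With 1 gene per chromosome, the lowest values were 14.0 points for Tmem165, 14.4 for Zfp423, 14.4 for Ccnk, 14.5 for Fer1l6 and 14.5 for Them7. All 5 were early, from 0.604 h for Zfp423 to 2.38 h for Tmem165, and were replicated in 88.1% to 95.2% of diploid values, so the measure mainly matched genes that most cells had replicated.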

How the data were processed

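Single nuclei were sorted by DAPI content, amplified and sequenced. Per the study's methods and the submitters' processing notes, the authors mapped reads to mm10 with Bowtie 2, removed duplicates with SAMtools and counted depth-scaled reads in 50 kb windows. They divided by G1 and G2 cells, masked windows, centered and scaled each cell and median smoothed it. Smoothing spans many neighbouring windows, which widens any dip and blurs its edges. The deposited smoothed values are a score without a unit, and the deposited binarized states are 0 or 1 (no other unit), made by the authors by segmentation and a threshold in each cell. Depth is unknown from these values.

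Columns were matched to labelled samples by line and well. A further 24 columns of 8 diploid cells matched no label and were not used, nor were the labelled cells without values, among them 6 haploid G1 cells. Bins needed a state in every cell and a score in 50% or more of each line's cells. Progress is the percentage of autosomal bins replicated, homologs averaged, and 10 h stand for S phase. Gene positions are those of RefSeq on GRCm38.p6, whose coordinates are those of mm10. Cells were described with no test. Alternatives covered the schedule, centering, bins, flanks, states, progress and pairing of cells, and leaving out cells. The code was tested on simulated cells with known midpoints (Python 3.11.15, numpy 2.4.6, scipy 1.17.1).

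The genes named were the first and last of each cluster, the other protein-coding genes of the locus, up to 3 in the earliest and latest bin of each flank, fixed lists of 10 lone protocadherins and 11 genes linked to the clusters, and the 5 genes most like the locus. The bins, genes and lists were chosen with earlier results of these data known. Bins named for an extreme value, and single cells named by well, were chosen after their values were seen.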

Additional observations from a re-analysis of the deposited data

How the results depend on the processing

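Of 57 alternative values, 45 of them planned, 53 stayed within the spread of the reported value. That spread was wide, for instance from -3.43% to 36.1% for the differing states of matched cells, so staying within it is a weak check. Shares of cells, genomes or bins cannot change sign, and no difference in time or score did. The locus was scheduled at 3.70 to 4.35 h and 2.20 to 3.53 h after its flanks, and Pcdhg minus Pcdha was -3.53 to -2.98 h. The haploid minus diploid score stayed between 0.109 and 0.208, including 6 values that each left out 1 haploid plate row with matched cells, chosen after seeing the data. Counting a score above 0 as replicated lowered the mid-S diploid cells with the locus replicated from 71.1% to 53.3% and the uniform genomes from 65.2% to 38.4%, and raised the differing states of matched cells from 16.3% to 32.2%. Requiring all 21 bins lowered the mid-S diploid cells to 48.9%, and mid-S cells alone had 57.4% of genomes uniform. In these the states or the cells counted are other ones by construction.

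No pair of cells of a line shared 95% of its states, so the planned removal of such pairs gave no value. Leaving out 1 cell of each of 2 diploid pairs with a score correlation of at least 0.9, chosen after seeing the data, removed cell F11 and with it all locus asynchrony (0 in place of 0.983%). No paired analysis was possible because a well shared by both lines names only a place on a plate, and no test was run. Smoothing and the smallest segment limit what can be resolved. By the study's methods, the smoothing span is longer than the median run of 550 kb seen past 40% of progress. The few cells under 40% of progress limit the fitted midpoints of the whole locus and those of the clusters in haploid cells.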
